A study of Homo sapiens with 15 samples.

Results

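RNA purified with UPF1 isoform 1 (UPF1-1 IP, 3 libraries) was compared directly with RNA purified with UPF1 isoform 2 (UPF1-2 IP, 3 libraries). All genes of the deposited table were eligible, and 11848 of 12261 were kept because they reached at least 1 TPM (a relative abundance scaled for transcript length and library size) in at least 3 of the 6 IP libraries. The comparison takes the RNA in the purifications as it is, with no correction for how much of each transcript the cells held. It therefore asks which transcripts made up more of the RNA recovered with either isoform, and values from total RNA are given beside it further on.

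UPF1 is an RNA helicase that binds RNA broadly and is required for nonsense-mediated decay (NMD), the pathway that degrades messages whose translation ends in an unfavourable place. Phosphorylation by SMG1 and contact with UPF2 and UPF3 drive the pathway, and SMG5 and SMG6 take part in cutting and degrading the RNA. UPF1 isoforms 1 and 2 arise by alternative splicing and differ in the length of a regulatory loop in the helicase core.

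The series held 15 libraries in 5 groups of 3, and each came from HEK-293 Trex cells. This is an established line, derived from human embryonic kidney, in which doxycycline switches on an integrated gene. Cells carried CLIP-tagged UPF1 isoform 1, CLIP-tagged UPF1 isoform 2 or GFP, all were given 200 ng/mL doxycycline, and the labels name no depletion of endogenous UPF1. Total RNA was sequenced for all 3 constructs, and purified RNA for both isoforms. Each construct had its own line, so line and isoform cannot be told apart. The samples include no GFP purification, so RNA that sticks to the matrix was not measured. The labels do not say that replicates were separate cultures, so p-values measure the spread between these libraries, which may be technical.

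The level of UPF1 RNA was checked first. UPF1 (ENSG00000005007) was at 106, 94.5 and 186 TPM in UPF1-1 total RNA and at 68.9, 72.7 and 171 TPM in UPF1-2 total RNA, against 3.24, 3.80 and 8.57 TPM in GFP total RNA. In the purifications it stood at 2660, 2255 and 4689 TPM with UPF1-1 and at 2213, 2064 and 5259 TPM with UPF1-2. All UPF1 libraries were far above GFP, and the IP groups overlapped. The IP difference of UPF1 was 0.01 ± 0.12 (log2, SE) with an adjusted p of 0.95. The table lists 1 transcript per gene and does not tell the isoforms apart.

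The depth of the libraries is unknown, because the values are TPM. The listed genes held 44.7% to 69.9% of all TPM in the 6 IP libraries, but only 12.2% to 19.0% in the total RNA libraries. In the IP libraries the median gene stood at 10.9 to 19.9 TPM, highest in replicate 3 of both isoforms. After the group means were removed, replicate 3 of UPF1-1 and replicate 3 of UPF1-2 deviated together across genes (r = 0.92), and same-numbered libraries also did for replicate 1 (r = 0.70) and replicate 2 (r = 0.77). Replicates 1 and 2 of different isoforms correlated about as well (r = 0.69 and 0.76), while replicate 3 against either ran from -0.87 to -0.79. Replicate 3 thus stood apart from the others in both groups, and numbers 1 and 2 were not shown to mark separate pairs. Library medians were set equal on the log2(TPM + 0.5) scale, and the replicate number entered the fit as a pair.

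With this paired fit, 5172 genes (43.7% of those tested) differed between the IPs at an adjusted p under 0.05. Of these, 2317 (19.6%) were higher with UPF1-1 and 2855 (24.1%) were lower. In simulated data with few changed genes, a larger share of this fit's calls fell on unchanged genes than its threshold allows. The count and the adjusted p-values from it may therefore be too favourable. The differences were mostly small. The median size among the called genes was 0.35 on the log2 scale, 647 reached 1.5-fold (377 higher, 270 lower) and 44 reached 2-fold (28 higher, 16 lower). Signs were the same in all 3 pairs for 5158 of the called genes, and for 67.6% of all genes tested. The agreement among called genes follows largely from the paired call itself. The differences of the 3 pairs correlated across genes at r = 0.65, 0.65 and 0.62, as a description, since genes are not independent.

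Every one of these calls depends on a term that takes up the replicate 3 difference. Without the replicate block, limma called 0 genes, the smallest adjusted p was 0.25, and 1247 genes had an unadjusted p under 0.05. A block of 2 levels that set replicate 3 against the rest, added after the values were seen, called 4978 genes, of which 4875 were called in the same direction with the 3-level block. On the centred scale the 3 values of either IP lay apart from the 3 of the other for 921 genes higher and 1150 lower with UPF1-1, and 1740 of these were called. Without replicate 1 the count was 3387. When medians were not set equal, 2888 genes were higher and 1924 lower, so the balance between the directions depends on that choice. No median of a gene list changed sign without centring or with upper-quartile scaling.

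**Figure D1:**
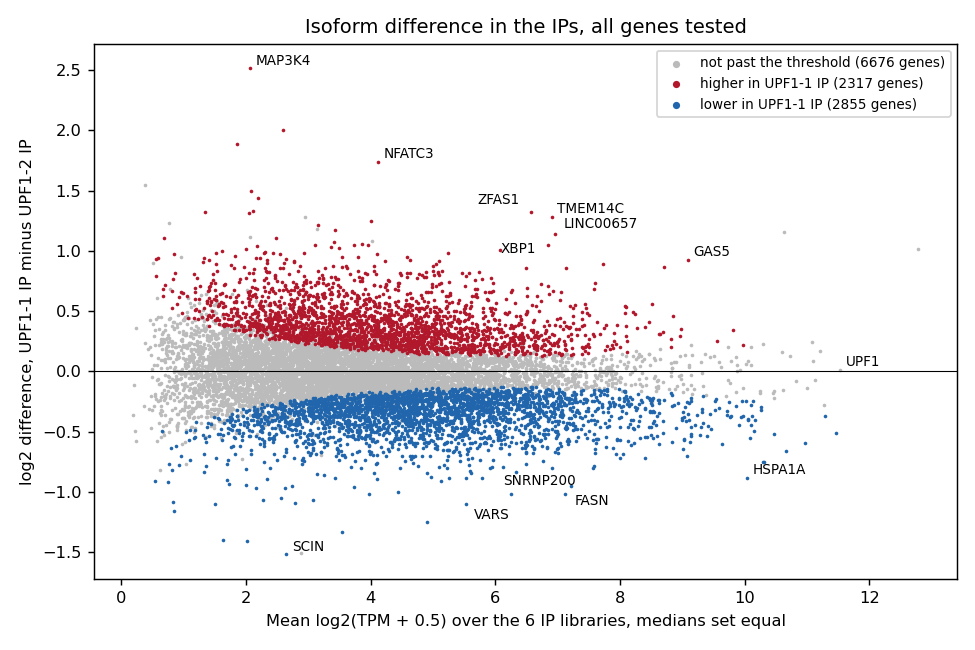
Difference between the IPs (log2, UPF1-1 minus UPF1-2, y axis) against the mean level over the 6 IP libraries (log2(TPM + 0.5), x axis) for 11848 genes. Red points are the 2317 genes called higher with UPF1-1, blue points the 2855 called lower, and gray points did not pass the threshold in the paired fit. Most called genes lie within 1.5-fold, and UPF1 itself lies at 0.01.

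Among called genes with a mean of at least 5 TPM, the largest excess in the UPF1-1 IP was in genes of unlike function. The mRNA of NFATC3 (ENSG00000072736), a calcium-controlled transcription factor, stood at 32.7, 36.0 and 27.9 TPM with UPF1-1 and at 9.16, 8.18 and 9.15 TPM with UPF1-2. Every UPF1-1 value was above every UPF1-2 value, and the difference was 1.74 ± 0.11 (adjusted p = 0.00026). TMEM14C (ENSG00000111843), a mitochondrial membrane protein needed for heme synthesis, was at 198, 198 and 176 TPM against 78.0, 78.0 and 67.9 TPM. Its groups lay far apart in every library, and at 1.28 ± 0.045 (adjusted p = 0.00012) it was 2.44 times as high with UPF1-1. LINC00657, the long noncoding RNA also known as NORAD, which binds Pumilio proteins, was at 145, 126 and 364 TPM against 60.2, 60.1 and 148 TPM. Replicate 3 was highest in both groups and the TPM ranges overlapped, but the groups were apart once medians were equal (1.14 ± 0.051, adjusted p = 0.00023).

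A pair of genes with larger fitted values rested on uneven libraries. MAP3K4, a stress-activated kinase, was at 11.8, 12.1 and 6.32 TPM with UPF1-1 and at 2.09, 3.31 and 0 TPM with UPF1-2. It was listed at 0 in 1 library, so its fitted difference of 2.52 ± 0.33 depends on the pseudocount. FBXW7, a substrate receptor of an SCF ubiquitin ligase, was at 9.99, 10.3 and 16.0 TPM against 0.522, 2.78 and 7.11 TPM, and its pair differences fell between 1.01 and 3.30. Other genes more than 2-fold higher included C11orf96 (1.25 ± 0.10), the antisense RNA RAP2C-AS1 (1.21 ± 0.073), CALCB, which encodes a calcitonin-related peptide (1.18 ± 0.090), HSPA13, an ER-associated Hsp70 (1.07 ± 0.13), and LYSMD3 (1.06 ± 0.076). ROCK1P1 (1.11) is a pseudogene whose reads cannot be told apart with confidence from those of ROCK1.

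The largest shortfalls with UPF1-1 included mRNAs of housekeeping enzymes. FASN (ENSG00000169710), which encodes fatty acid synthase, was at 72.9, 62.6 and 214 TPM with UPF1-1 and at 134, 128 and 420 TPM with UPF1-2. Replicate 3 was high in both groups, and UPF1-2 was 2.03-fold higher in the fit (-1.02 ± 0.049, adjusted p = 0.00023, limma). SNRNP200 (ENSG00000144028), the helicase that unwinds U4 from U6 in the spliceosome, was at 43.1, 32.0 and 113 TPM against 85.0, 67.8 and 200 TPM. Its pair differences were alike (-1.04, -1.09 and -0.93), and so was the fitted value of -1.02 ± 0.050. VARS (ENSG00000204394), valyl-tRNA synthetase, was at 23.7, 19.9 and 68.4 TPM against 51.4, 43.9 and 127 TPM. The fit gave -1.10 ± 0.052 (adjusted p = 0.00023, limma).

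The actin-severing protein gene SCIN showed the largest negative value, at 2.36, 2.03 and 6.96 TPM against 7.27, 6.55 and 19.9 TPM (-1.52 ± 0.083, adjusted p = 0.00023). Its groups were apart once medians were equal. SMEK1 (-1.34) and ATXN2L (-1.05) were also past 2-fold, but a single pair carried much of each value: their pair differences ran from -2.42 to -0.75 and from -1.94 to -0.59. TNIK was near 0 TPM in replicates 1 and 2 of UPF1-1, and its pair differences were -1.74, -2.09 and -0.37. Its fitted value of -1.40 depends on the pseudocount (-2.57 with 0.1 and -0.98 with 1), and its adjusted p was 0.065 without replicate 1. EPPK1, a cytolinker (-1.09 ± 0.092), MCM3AP, an mRNA export scaffold (-0.9999 ± 0.064), and AP001062.1 (-1.07 ± 0.087) were lower as well. EIF3C (-1.02) and its near-identical copy EIF3CL (-0.80), and the histone gene HIST1H2BG (-1.25), share sequence with copies, so their own values are uncertain.

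**Figure D2:**
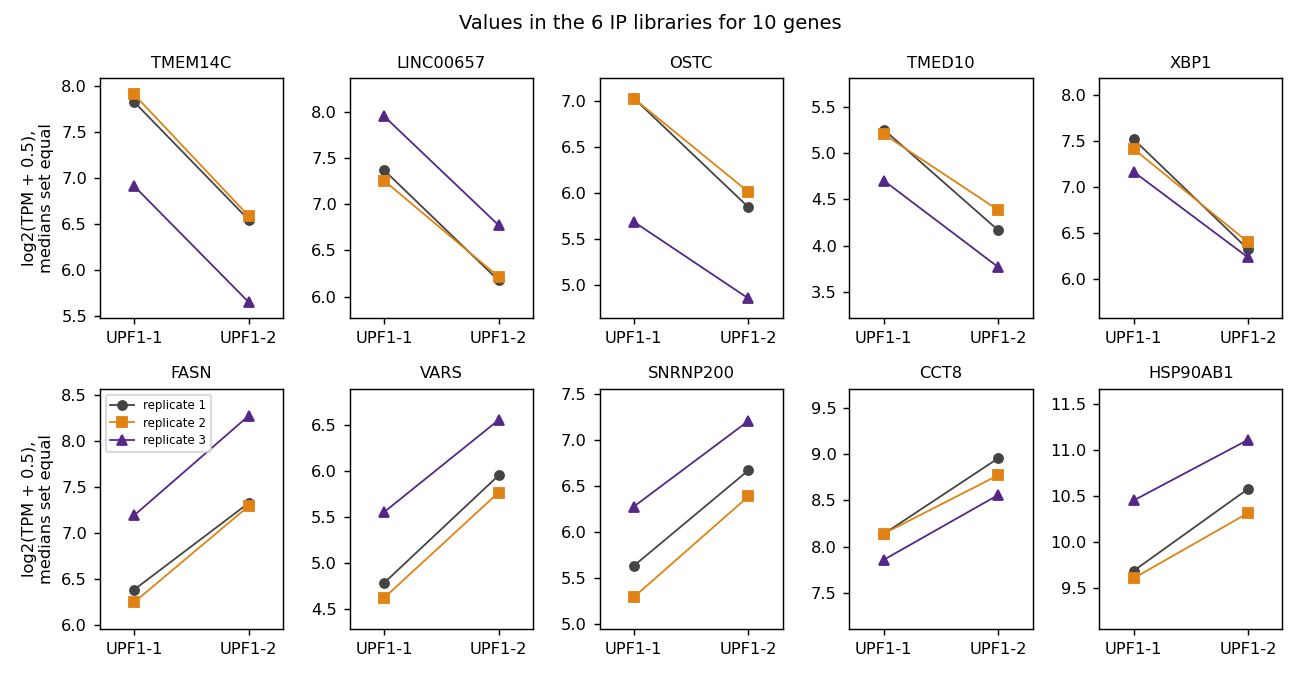
Values of 10 genes in the 6 IP libraries (y axis, log2(TPM + 0.5) with library medians set equal) for UPF1-1 and UPF1-2 (x axis); lines join libraries with the same replicate number. In the upper 5 genes every line falls from UPF1-1 to UPF1-2 and in the lower 5 every line rises, while replicate 3 often lies well above or below the others in both groups. All 10 are called genes, some chosen for 1 sign in all pairs, so the common direction of the lines adds no support.

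Counts of list members, here and below, are to be read against all genes tested, of which 19.6% were higher and 24.1% lower. Among the lists, the one with the largest excess in the UPF1-1 IP was of the endoplasmic reticulum (ER). ER chaperones and unfolded protein response genes, which fold, modify and translocate proteins there, had 32 of 44 members higher and 0 lower, with a median difference of 0.42 against -0.02 for all genes tested. The list medians were 0.56, 0.34 and 0.41 in the 3 pairs. SSR3, a subunit of the translocon-associated complex, was at 344, 329 and 224 TPM with UPF1-1 and at 154, 177 and 126 TPM with UPF1-2. Each UPF1-1 value was higher than its pair partner (0.89 ± 0.073, adjusted p = 0.00032). XBP1, the transcription factor of the IRE1 branch, was at 161, 141 and 210 TPM against 66.9, 68.6 and 102 TPM, with no overlap (1.05 ± 0.060, adjusted p = 0.00023). MANF, a secreted ER stress factor (0.95 ± 0.064), and HERPUD1, a component of ER-associated degradation (0.92 ± 0.052), were close to that value. HSPA5, which encodes the ER chaperone BiP, was listed at only 2.07 to 5.93 TPM and did not pass (0.30 ± 0.11, adjusted p = 0.068).

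Further secretory lists were chosen after these values were seen and are given as a description. RAB genes and golgins, looked at in the same step and not kept, were shifted less. RAB genes had 21 of 58 higher and 11 lower (median 0.06), and golgins 3 of 13 higher and 0 lower (median 0.02). ER-to-Golgi cargo receptors and membrane fusion genes had 22 of 34 members higher and 0 lower (median 0.32), among them TMED10, a p24 cargo receptor, at 33.1, 30.2 and 37.8 TPM against 14.6, 16.6 and 18.0 TPM. All UPF1-1 values of TMED10 were above all UPF1-2 values (0.95 ± 0.065, adjusted p = 0.00029). LMAN1, a lectin that ferries glycoproteins to the Golgi, was at 39.4, 34.9 and 44.0 TPM against 18.0, 22.5 and 24.6 TPM, also apart (0.79 ± 0.086). N-glycan and GPI anchor assembly genes had 20 of 47 higher and 0 lower (median 0.19). Its leading member OSTC, an oligosaccharyltransferase subunit, was at 114, 107 and 75.1 TPM against 47.8, 52.1 and 38.9 TPM (1.01 ± 0.069, adjusted p = 0.00029). COPI and COPII coat subunits, cytosolic proteins that shape the vesicles of the same route, went the other way with 1 of 19 higher and 12 lower (median -0.25), for example SEC24A at -0.53 ± 0.048.

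Other genes for membrane proteins were shifted less. The TMEM transmembrane genes had 64 of 142 members higher and 7 lower (median 0.16), and solute carriers, which move small molecules across membranes, had 44 of 158 higher and 17 lower (median 0.12). TMEM128 (0.86 ± 0.079), TMEM38B, an ER cation channel (0.83 ± 0.091), and SLC41A2, a magnesium transporter (0.65 ± 0.072), were among the leading members. Golgi glycosyltransferases, a list chosen after values were seen, had 9 of 40 higher and 2 lower (median 0.11), and the share higher, 22.5%, is near the 19.6% of all genes. Cell adhesion and matrix genes had 4 of 25 higher and 2 lower, shares near or below those of all genes. ITGB1, the integrin beta-1 subunit, was at 16.0, 15.1 and 25.5 TPM against 11.96, 11.9 and 19.4 TPM (0.31 ± 0.057, adjusted p = 0.0051). ITGB3BP, which is in that list by its name only, encodes a kinetochore protein.

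Noncoding RNAs were also higher with UPF1-1 more often than lower. Among genes annotated as long noncoding RNA, 107 of 479 were higher (22.3%) and 29 lower (6.05%), with a median of 0.13. The share higher was near the 19.6% of all genes, and the share lower was below their 24.1%. Protein-coding genes had 2043 of 10303 higher and 2682 lower (median -0.03). The median long noncoding RNA stood at 4.2 TPM, and in the tenth of genes by level with a median of 4.14 TPM, 189 of 1185 were higher and 113 lower. In the list of LINC and antisense RNAs, 50 of 185 were higher (27.0%) and 9 lower (4.9%). A list of 12 noncoding RNAs held mostly nuclear RNAs and also LINC00657, which is mainly cytoplasmic. Of these, 4 were higher and 0 lower: LINC00657, OIP5-AS1, JPX and MALAT1. OIP5-AS1, a long noncoding RNA that binds the HuR protein, was at 52.7, 47.5 and 63.0 TPM against 23.4, 24.7 and 30.0 TPM, with no overlap (0.98 ± 0.055, adjusted p = 0.00023). MALAT1, a nuclear speckle RNA, was at 4.23, 3.84 and 8.87 TPM against 2.76, 3.08 and 6.46 TPM (0.35 ± 0.097, adjusted p = 0.024), and its adjusted p was 0.12 without replicate 1 and 0.066 without replicate 3.

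The snoRNA host genes, whose spliced RNAs carry short reading frames and are classical NMD substrates, moved both ways. Of 15, 8 were higher (53.3%) and 4 lower (26.7%), against 19.6% and 24.1% of all genes. GAS5 was at 861, 867 and 601 TPM with UPF1-1 against 428, 420 and 317 TPM with UPF1-2. The groups of GAS5 were apart in TPM but overlapped once medians were equal, and each pair was higher with UPF1-1 (0.93 ± 0.065, adjusted p = 0.00029). ZFAS1 was at 192, 197 and 96.8 TPM against 66.1, 72.5 and 41.7 TPM (1.33 ± 0.075). SNHG15 (0.56 ± 0.062) and SNHG1 (0.52 ± 0.046) were higher, while SNHG8 (-0.50 ± 0.079) and TAF1D (-0.54 ± 0.065), named after their values were seen, were lower.

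Known NMD targets moved both ways. Of 42, 18 were higher (42.9%) and 12 lower (28.6%), against 19.6% and 24.1% of all genes. The share higher was thus well above that of all genes, and the share lower was near it. Their median was 0.04, and it was -0.0050 without replicate 3. Higher members included GADD45A, a growth arrest gene (0.81 ± 0.065), and PPP1R15A, which encodes a phosphatase subunit that reverses eIF2 phosphorylation (0.82 ± 0.071). ATF4, the main transcription factor of the integrated stress response, was at 843, 873 and 1194 TPM against 817, 869 and 1080 TPM and did not differ beyond its error (0.00 ± 0.066, adjusted p = 1.0). Integrated stress response genes had 13 of 31 higher (41.9%) and 7 lower (22.6%), with a median of 0.08. TRIB3, a pseudokinase induced by that response, was at 189, 180 and 211 TPM against 90.2, 95.6 and 120 TPM, with no overlap (0.86 ± 0.064), and NUPR1 (0.75 ± 0.070) and ATF3 (0.69 ± 0.060) were higher too.

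The RNAs of the NMD factors themselves were mostly lower with UPF1-1. Of 27 SMG, UPF and exon junction complex genes, 16 were lower (59.3%) and 3 higher (11.1%), with a median of -0.24. SMG1, the kinase that phosphorylates UPF1, was at 27.0, 22.96 and 46.4 TPM against 37.7, 34.3 and 66.3 TPM, lower in each pair (-0.58 ± 0.048, adjusted p = 0.00032). EIF4A3, the helicase at the core of the exon junction complex, was at 32.4, 32.7 and 91.6 TPM against 73.6, 55.4 and 111 TPM (-0.80 ± 0.14), with pair differences of -1.23, -0.77 and -0.39. UPF3A (-0.54 ± 0.088), UPF3B (-0.42 ± 0.071) and UPF2 (-0.33 ± 0.054), the bridging factors, were lower. SMG5 (-0.02 ± 0.048, adjusted p = 0.81) and SMG6 (0.05 ± 0.064, adjusted p = 0.57) did not pass. SMG9, a subunit of the SMG1 kinase complex, was higher at 136, 128 and 274 TPM against 103, 95.5 and 223 TPM (0.31 ± 0.055, adjusted p = 0.0042).

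On the other side of the comparison, the messages of protein synthesis were lower with UPF1-1. Aminoacyl-tRNA synthetases, which charge tRNAs, had 29 of 35 members lower and 0 higher (median -0.29). EPRS, the bifunctional glutamyl-prolyl enzyme, was at 76.6, 61.1 and 132 TPM against 121, 102 and 206 TPM. Its 3 pair differences were nearly equal (-0.72, -0.76 and -0.75), and the fit gave -0.74 ± 0.044 (adjusted p = 0.00024). Ribosome biogenesis genes had 44 of 50 lower and 2 higher (median -0.39), including TCOF1, a nucleolar factor for ribosomal RNA transcription (-0.74 ± 0.094). NCL, nucleolin, was at 23.2, 17.6 and 254 TPM against 44.6, 30.3 and 360 TPM, so replicate 3 was far above the other libraries in both groups, and UPF1-2 was higher in every pair (-0.80 ± 0.072). Cytosolic ribosomal proteins had 51 of 83 lower and 3 higher (median -0.23), led by RPL34 at 87.8, 90.6 and 161 TPM against 207, 169 and 233 TPM, with no overlap (-0.95 ± 0.11). Translation initiation and elongation factors had 32 of 69 lower (46.4%) and 12 higher (17.4%, near the share of all genes). Their median was -0.17, and EIF5A was among the lower ones (-0.70 ± 0.060).

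Cytosolic folding and degradation machinery followed. The CCT chaperonin, which folds actin and tubulin, had 8 of 9 subunits lower and 0 higher (median -0.40), and CCT6B was the member that did not pass. CCT8 was at 247, 233 and 340 TPM against 418, 357 and 513 TPM. Every pair was lower with UPF1-1 (-0.72 ± 0.058, adjusted p = 0.00032). Heat shock chaperones of the cytosol had 19 of 25 lower and 2 higher (median -0.34). HSP90AB1 was at 724, 648 and 2059 TPM against 1285, 1042 and 3010 TPM (-0.75 ± 0.081), and HSPA8, the constitutive Hsp70, at 805, 860 and 1434 TPM against 1533, 1303 and 2072 TPM (-0.75 ± 0.096). Chaperones of the cytosol and of the ER thus lay on opposite sides of 0. HSPA1A (-0.89) and HSPA1B (-0.72) are near-identical and their reads may be split between them. Proteasome subunits had 24 of 34 lower and 3 higher (median -0.35), for example PSMD1 (-0.51 ± 0.047).

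Energy metabolism was lower to a varying degree. Glycolytic enzymes, a list chosen after the values were seen, had 14 of 17 members lower and 0 higher and the lowest median of the lists described (-0.51). PFKM, muscle-type phosphofructokinase, was at 32.0, 28.2 and 56.6 TPM against 50.9, 43.8 and 84.2 TPM (-0.68 ± 0.046, adjusted p = 0.00029), lower in each pair. Nuclear-encoded oxidative phosphorylation subunits had 35 of 75 lower and 8 higher (median -0.16), with UQCRC2 of complex III at 137, 131 and 209 TPM against 233, 189 and 306 TPM (-0.68 ± 0.063). Mitochondrial ribosomal proteins had 21 of 73 lower and 12 higher (median -0.09), shares that lie near those of all genes. Cholesterol and fatty acid synthesis genes split evenly, 9 of 33 each way (27.3%), against 19.6% of all genes higher and 24.1% lower. FASN nevertheless had one of the most negative values of all.

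RNA-binding and nuclear machinery was also on the lower side. DEAD and DEAH box helicases had 36 of 47 lower and 1 higher (median -0.27), including DHX9 (-0.65 ± 0.059) and DDX5 (-0.72 ± 0.053). Nuclear pore genes had 18 of 27 lower and 2 higher (median -0.40), with NUP107, a scaffold nucleoporin, at -0.64 ± 0.056. PTBP1 and HNRNPL encode RNA-binding proteins known to shield some transcripts from NMD. PTBP1 was at 104, 91.9 and 392 TPM against 141, 136 and 482 TPM (-0.50 ± 0.052), and HNRNPL at 122, 108 and 307 TPM against 186, 142 and 438 TPM (-0.57 ± 0.061). Both were lower with UPF1-1 in each pair, and replicate 3 was the highest library of each group. The wider list of hnRNP genes had 20 of 32 lower and 1 higher (median -0.27).

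Lists for cell division, RNA decay, the cytoskeleton and further nuclear machinery also had more members lower than higher, with shares lower that varied widely. Mitotic spindle and kinetochore genes had 35 of 64 lower (54.7%) and 9 higher, with KIF20A, a mitotic kinesin, at -0.64 ± 0.053. DNA replication genes had 23 of 48 lower (47.9%) and 6 higher, with TOP2A, the replication-associated topoisomerase, at -0.54 ± 0.053. Deadenylation, decapping and exonuclease genes had 18 of 42 lower (42.9%) and 8 higher (19.0%), with EXOSC10, an exosome nuclease, at -0.58 ± 0.058. Of 14 microRNA pathway genes, 6 were lower and 0 higher, among them DROSHA (-0.60 ± 0.072). SR splicing factors had 5 of 14 lower and 1 higher, and 3 of the 4 named members, SRSF5, SRSF3 and SRSF7, lost their call in at least 2 leave-out fits. Actin, myosin, filamin, spectrin and tubulin genes, chosen after values were seen, had 28 of 40 lower and 0 higher, led by FLNA, filamin A (-0.88 ± 0.046). Spliceosome proteins (24 of 49 lower, 9 higher), RNA polymerase and Mediator subunits (23 of 57 lower, 10 higher) and nuclear transport receptors (13 of 21 lower, 1 higher) are lists of the same late choice, with POLR2A, the largest subunit of RNA polymerase II, at -0.91 ± 0.047.

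ZNF zinc finger genes, mostly transcriptional repressors, had 99 of 385 higher (25.7%) and 40 lower (10.4%), with a small median of 0.07 and ZNF678 at 0.82 ± 0.065. Replication-dependent histones showed no common direction, with 7 of 52 higher (13.5%) and 4 lower (7.7%), both below the shares of all genes (median 0.08). These genes have near-identical copies, and their median was -0.0016 without replicate 2. Among immediate early genes, 6 of 28 were higher (21.4%) and 5 lower (17.9%), shares near or below those of all genes.

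**Figure D3:**
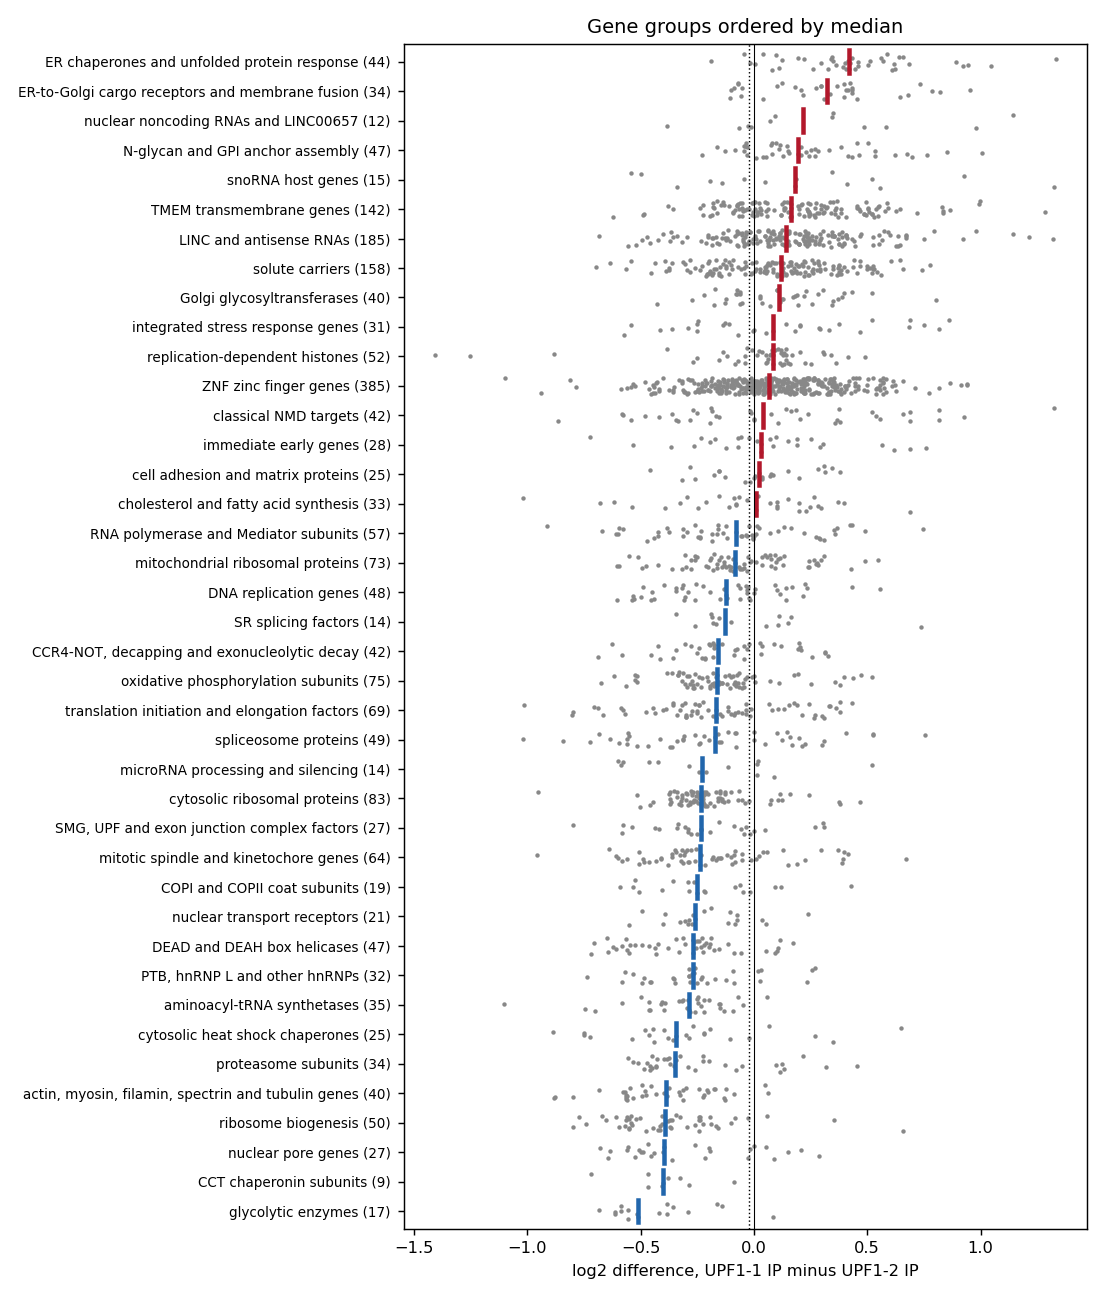
Differences between the IPs (x axis, log2, UPF1-1 minus UPF1-2) for the members of 40 gene lists (y axis, number of genes tested in brackets). Each gray point is a gene, each colored bar is the list's median, and the dotted line is the median of all genes tested (-0.02). The ER and ER-to-Golgi lists stand highest, and glycolytic enzymes, CCT subunits and nuclear pore genes stand lowest. The ER-to-Golgi and glycolytic lists were among those chosen after the values were seen, so their rank may follow from that choice.

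The isoform difference of a gene moved with how replicate 3 deviated from replicates 1 and 2. Across genes, the difference and that deviation, taken over both IPs, correlated at r = -0.40, and at -0.33 and -0.44 for the differences of pairs 1 and 2 alone; the points share libraries, and this is a description. In the fifth of genes that were lowest in replicate 3, 945 were higher and 201 lower with UPF1-1. In the fifth that were highest in replicate 3, 122 were higher and 1085 lower. hnRNP genes were well above the others in replicate 3 (median deviation 0.82), and with the straight-line part of this relation subtracted their median went from -0.27 to -0.09. The same subtraction left the ER list at 0.38, aminoacyl-tRNA synthetases at -0.29, CCT subunits at -0.41 and glycolytic enzymes at -0.40. SR splicing factors went to 0.01, microRNA pathway genes to -0.04 and snoRNA host genes to 0.07. The NMD factor list went from -0.24 to -0.14, RNA decay factors from -0.16 to -0.05 and DEAD and DEAH box helicases from -0.27 to -0.17. Single genes moved as well: PTBP1 went to -0.25, NCL to -0.25, TCOF1 to -0.48, UPF3B to -0.14, HSPA1B to -0.33, EIF3C to -0.41 and TNIK to -0.58. Of the 191 genes chosen by the naming rule, 79 moved by more than the SD of their 3 pair differences, and 0 of the called ones changed sign.

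Level also moved with the difference, more weakly (r = -0.16 across genes). In the tenth of genes with the highest levels, 191 were higher and 541 lower with UPF1-1, with a median of -0.13. The median of cytosolic ribosomal proteins, whose median member stood at 372 TPM, was -0.13 after the median of its level class was taken away. That subtraction moved 50 of the 191 genes by more than the SD of their pair differences. The part that replicate 3 and level have in the differences was not tested.

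**Figure D4:**
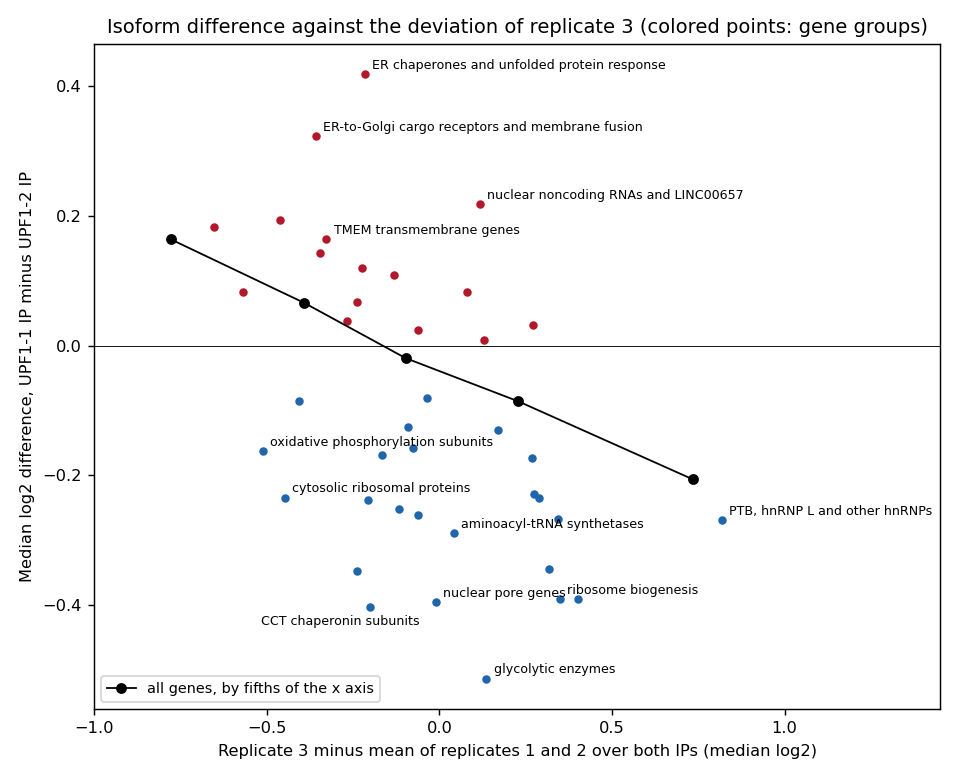
Median difference between the IPs (y axis, log2, UPF1-1 minus UPF1-2) against the median deviation of replicate 3 from replicates 1 and 2 over both IPs (x axis, log2). Black points joined by a line are 5 equal classes of all genes by the x axis and fall from 0.16 to -0.21; colored points are gene lists, red above 0 and blue below. Several lists, such as ER chaperones and glycolytic enzymes, lie far from the line of all genes. The glycolytic list was chosen after the values were seen.

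Total RNA was compared between the same lines to set beside the IP values. There, 288 of 8279 genes (3.48%) differed in the paired fit, 159 higher (1.92%) and 129 lower (1.56%) in the UPF1-1 line. Limma called 0 without the block, with 285 genes at an unadjusted p under 0.05, and it called 86 with the block but without replicate 2. Differences in the IPs and in total RNA correlated at r = 0.14 over 8212 genes. Of 4212 genes called between the IPs and tested in total RNA, 149 (3.54%) were also called in total RNA in the same direction, which is 52.5% of the 284 called there, and 31 were called in the opposite direction.

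Recovery, the IP level over the total RNA level of the same isoform and number, gives the test of whether the IP difference exceeds the total RNA difference. It differed between the isoforms for 2687 of 8212 genes (32.7%), 1261 higher (15.4%) and 1426 lower (17.4%) with UPF1-1, and for 1375 genes without the block. Of the 4212 genes called between the IPs, 2243 (53.3%) were also called in recovery in the same direction and 9 in the opposite one. Both tests use the same IP libraries, so they are not independent. Of the genes named for the largest IP differences, C11orf96 (1.07), CALCB (0.61), SMEK1 (-0.68) and HIST1H2BG (-0.76) were also called in total RNA. SCIN, TNIK, EPPK1, AP001062.1 and ROCK1P1 were too low there to pass the filter, so neither their total RNA nor their recovery was tested. The untested total RNA values of SCIN, TNIK and EPPK1 were lower with UPF1-1 in each pair, while AP001062.1 and ROCK1P1 had pairs of both signs. For SCIN they were 0.442, 0.398 and 0.602 TPM with UPF1-1 against 0.972, 0.758 and 1.82 TPM with UPF1-2. Recovery did not pass for C11orf96 (0.18, adjusted p = 0.20, limma) or SMEK1 (-0.66, adjusted p = 0.16, limma). It passed for CALCB (0.56) and HIST1H2BG (-0.49).

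The named ER and stress response genes gave unlike results in this test. XBP1, HERPUD1, MANF and TRIB3 were higher in UPF1-1 total RNA by 0.95, 0.87, 0.70 and 0.86, and their recovery differences of 0.09, 0.05, 0.25 and 0.00 did not pass (adjusted p = 0.43, 0.70, 0.14 and 0.97). XBP1, for example, was at 28.7, 24.2 and 37.0 TPM in UPF1-1 total RNA and at 10.4, 12.04 and 23.3 TPM in UPF1-2 total RNA. In contrast, SSR3, OSTC, TMED10 and LMAN1 did not pass in total RNA (0.34, 0.31, 0.21 and -0.03), and their recovery was higher with UPF1-1 by 0.56, 0.70, 0.75 and 0.81 (adjusted p = 0.0087, 0.0055, 0.0060 and 0.0055). Over the whole ER list, 17 of 33 genes tested were higher in recovery and 0 lower, and 6 were higher in total RNA. Integrated stress response genes had 7 of 28 higher and 0 lower in total RNA, against 1.92% of all genes higher. In recovery 3 of them were higher and 8 lower. Classical NMD targets had 5 of 36 higher and 0 lower in total RNA, and 6 higher and 4 lower in recovery. PPP1R15A, ATF3, NUPR1 and GADD45A were higher in total RNA by 0.91, 0.79, 0.65 and 0.53, and their recovery did not pass.

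Several lists that were lower with UPF1-1 in the IPs had 0 or few calls in total RNA. Only 1.92% of all genes were called higher there and 1.56% lower, so few calls are not particular to these lists. Among aminoacyl-tRNA synthetases 27 of 34 were lower in recovery, with a total RNA median of 0.11 and 0 called. CCT subunits had 7 of 8 lower in recovery, DEAD and DEAH box helicases 29 of 46, ribosome biogenesis genes 26 of 49 and glycolytic enzymes 14 of 16. The hnRNP list had 4 of 29 genes lower in total RNA, against 1.56% of all genes, but a total RNA median of only -0.05. In recovery 10 of its genes were lower and 1 higher, with a median of -0.21. Of the microRNA pathway genes 2 of 10 were lower in total RNA, and their median in recovery was 0.01. LINC00657 and OIP5-AS1 were each at -0.14 in total RNA, not called, and higher in recovery by 1.28 and 1.12. Cytosolic ribosomal proteins had only 5 of 82 lower in recovery and 1 higher, below the 17.4% and 15.4% of all genes, but their recovery median of -0.21 was close in size to the -0.23 between the IPs, and their total RNA median was -0.01. SMG9 was higher by 0.97 in total RNA, and its recovery difference was -0.67 (adjusted p = 0.0067), opposite in sign to its difference between the IPs. Histones had 12 of 52 higher and 3 lower in total RNA, and 0 higher and 4 lower in recovery.

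**Figure D5:**
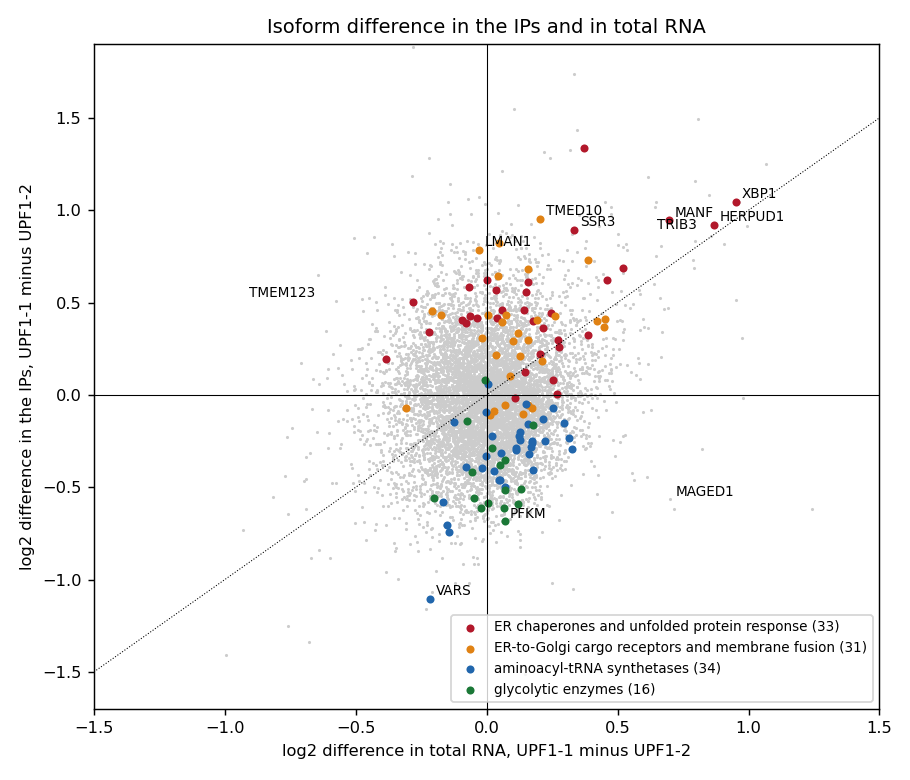
Difference between the IPs (y axis) against the difference in total RNA (x axis), both log2, UPF1-1 minus UPF1-2, for 8212 genes tested in both, of which 4 lie outside the axes. Colored points are members of 4 lists and the dotted diagonal marks equal differences. XBP1, HERPUD1, TRIB3 and MANF lie near the diagonal, while TMED10 and LMAN1 lie nearer to the vertical line at 0 in total RNA than to the diagonal.

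The cell type was checked against markers. Of 12 HEK-293 line markers, 9 were in the table, of which 4 were lower with UPF1-1, 1 was higher and 4 did not pass (median 0.02). VIM, vimentin, was at 450 to 942 TPM across the IP libraries and lower with UPF1-1 (-0.53 ± 0.068), as were KRT18 (-0.46), KRT8 (-0.36) and NEFL (-0.33), while EYA1 was higher (0.33). Of 8 blood and immune markers the table listed the hemoglobin genes HBA1 and HBA2, near-identical copies at 0.491 to 6.98 TPM. Of these 2, 1 was called lower with UPF1-1. None of the liver, muscle and skin markers was listed. The table holds a selected set of genes, so a marker missing from it is not shown to be absent from the cells.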

How the data were processed

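The authors deposited 1 table for the series with a TPM value per gene and library, and its depth per library is unknown. Per the submitters' processing notes, cutadapt, kallisto, sleuth and hg19 were used, with no versions given. The table lists 1 transcript per gene and holds a selected set of genes, so others were not analysed here.

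From these, log2(TPM + 0.5) was taken where a gene reached 1 TPM in 3 or more of the 6 libraries compared, and library medians were set equal. The model had the isoform and, as a block, the replicate number (limma 3.58.1, R 4.3.3, empirical Bayes with a trend). Tests were 2-sided, with Benjamini-Hochberg adjustment over all genes tested and a threshold of 0.05. With 3 pairs an exact test of 1 gene cannot go below a p of 0.25, so no such test is given. The block comes from the replicate numbers in the labels and from the deviations reported with the libraries. Recovery was log2 IP minus log2 total RNA within isoform and number. Scripts were tested on simulated data that held the real replicate effect and few changed genes; there, more of the paired fit's calls fell on unchanged genes than the threshold allows, so its adjusted p-values may be too small.

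The comparison, its fit and the gene lists were chosen with earlier results of these data known. There were 35 such lists. A further 9 were kept, and some of them trimmed, from 19 families looked at after the values were seen, and nothing is supported with them. Genes were named by a rule: UPF1, the 12 largest differences each way among called genes that averaged 5 TPM or more and had 1 sign in all pairs, 15 other genes, and up to 4 called members per list in the direction with more calls; text names any exception, and a few genes under this rule are not reported here. Biotypes came from RefSeq by current symbol for 11117 genes. The IP comparison was refitted in 14 other ways, 2 of them added after the values were seen, total RNA in 5 and recovery in 4. Subtracting the replicate 3 relation and the level relation were also added then.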

Additional observations from a re-analysis of the deposited data

Results flagged for a closer look

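Between the IPs and total RNA, 31 genes were called in opposite directions, 17 higher and 14 lower with UPF1-1 in the IPs. Of those with the largest recovery differences, 5 are given here, by a rule chosen after the values were seen. MAGED1, a MAGE family protein, was at 8.12, 5.94 and 28.5 TPM with UPF1-1 and at 11.7, 9.07 and 38.6 TPM with UPF1-2 in the IPs, but at 1.80, 2.24 and 6.39 TPM against 0.518, 1.21 and 4.57 TPM in total RNA. It was lower with UPF1-1 in each pair of IPs and higher in each pair of total RNA, and its recovery difference was -1.27 ± 0.096 (adjusted p = 0.0047, limma). WDR75, a ribosome biogenesis factor, had a recovery difference of -1.20 and WDR18 had -0.96. In the other direction, the recovery difference of TMEM123 was 1.09 and that of ZHX1 was 0.93. All 5 passed the limma test of the recovery difference at an adjusted p under 0.05. They were chosen by opposite calls and by the size of that same difference, so passing it adds no support.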

How the results depend on the processing

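Without the replicate block, 0 genes were called between the IPs (0 higher, 0 lower), and again 0 without both centring and block. In total RNA the count without the block was 0, and 67 without centring. In recovery it was 1375 without the block. When a replicate was left out, counts ran from 3387 to 4375 between the IPs, from 1501 to 1949 higher and from 1886 to 2426 lower, from 86 to 278 in total RNA, and from 1828 to 2116 in recovery. All other refits of the IP comparison gave counts within 1.5 times that of the paired fit. Of 191 named genes, 186 lost their call without the block; 3 lost it without centring and 13, 5 and 4 when replicate 1, 2 or 3 was left out. Signs that turned were of genes that passed no test. UPF1 ran from -0.0852 to 0.154 over the leave-out fits, at -0.0370 without replicate 2. SMG5 was at 0.0493 without centring, with or without the block, 0.0155 with upper-quartile scaling, and 0.0063 when genes averaging under 5 TPM were dropped, and ran from -0.0357 to 0.0037 over the leave-out fits, the latter without replicate 2. SMG6 ran from -0.0010 (without replicate 1) to 0.1251. ATF4 was at -0.0015 with a pseudocount of 0.1, -0.0028 with no filter, and ran from -0.0163 (without replicate 3) to 0.0087. The cause of these shifts was not tested. The unknown depth limits what can be said of low values.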
